A study of Homo sapiens with 4 samples.

Results

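CSMD1, PTPRN2, DLGAP2 and RBFOX1 are long genes with roles in the nervous system that lie towards the ends of human chromosomes 8, 7, 8 and 16. Their bodies were taken at fixed GRCh37 positions: CSMD1 at chr8:2792000-4853000, PTPRN2 at chr7:157331000-158381000, DLGAP2 at chr8:1449000-1657000 and RBFOX1 at chr16:6069000-7764000. A region belonged to a gene when it overlapped that body by at least 1 bp, and 345 of the 100205 regions that gained ATAC-seq signal with at least 1 of 3 anthracyclines did so. PTPRN2 held 197 of them, CSMD1 126, DLGAP2 20 and RBFOX1 2. ATAC-seq reads open DNA from the places where a transposase can insert sequencing adapters. The cells were K562, an established human leukaemia line that is not neural. They had 4 h of aclarubicin at 20 µM (Acla), of doxorubicin at 10 µM (Doxo) or of its N,N-dimethyl form, also at 10 µM (diMe-Doxo), and control cells were untreated. Each of the 4 groups is 1 GEO sample, and each drug's list gives values for 2 treated libraries and for the 2 control libraries that all 3 lists share. Of all gained regions, 66.6% are in the Doxo list, 52.7% in the diMe-Doxo list and 61.2% in the Acla list, and the members' counts per drug are read against these shares. The lists hold gained regions only, so markers of K562 cells could not be checked in them, and regions that lost signal were not analysed here.

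The genes do different jobs in neurons. CSMD1 encodes a large membrane protein with CUB and sushi domains that limits complement activity. PTPRN2 encodes a receptor-type tyrosine phosphatase protein of dense-core vesicles, the organelles that store hormones in neuroendocrine cells, and it has little phosphatase activity of its own. DLGAP2 encodes a scaffold protein of the postsynaptic density, where it sits with the channels and receptors of excitatory synapses. RBFOX1 encodes an RNA-binding protein that reads UGCAUG motifs and steers alternative splicing in brain and muscle. Doxo slides between DNA bases, traps topoisomerase II so that strands break, and drives histones off the DNA. diMe-Doxo has a methylated sugar amine, and Acla carries a longer chain of sugars; these compounds drive off histones while making few breaks. The series set out to tell these activities apart.

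The RBFOX1 gene body had 2 gained regions, and RefSeq lists gene starts at a similar spacing. One region, chr16:6068501-6070931 (2430 bp), lay across the start edge of the gene body and was listed for all 3 drugs. The other, chr16:6533642-6534064 (422 bp), was listed for Doxo only, and the midpoints of the 2 regions are 464.137 kb apart. The RefSeq table used here is on another build, GRCh38.p14, and lists 5 starts of RBFOX1, of which the third lies 464.362 kb after the first. Whether either region covers one of these starts was not determined, because no conversion between the builds was used here. The 250 bases upstream of the first 3 RefSeq starts are shown because those starts have the spacing of the listed regions; all 3 are on the plus strand of GRCh38.p14, and CpG dinucleotides are in capitals.
RBFOX1 start 1, chr16:6018774-6019023: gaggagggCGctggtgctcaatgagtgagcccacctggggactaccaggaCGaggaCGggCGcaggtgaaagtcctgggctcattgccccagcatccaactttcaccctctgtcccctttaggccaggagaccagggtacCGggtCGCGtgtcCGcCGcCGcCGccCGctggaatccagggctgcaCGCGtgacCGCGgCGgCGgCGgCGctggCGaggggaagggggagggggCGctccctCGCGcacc
RBFOX1 start 2, chr16:6019453-6019702: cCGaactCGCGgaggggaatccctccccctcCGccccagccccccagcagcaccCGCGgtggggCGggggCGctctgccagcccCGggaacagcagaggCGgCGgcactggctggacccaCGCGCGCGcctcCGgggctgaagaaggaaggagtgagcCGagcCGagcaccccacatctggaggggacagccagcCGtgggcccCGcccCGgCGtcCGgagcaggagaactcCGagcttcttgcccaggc
RBFOX1 start 3, chr16:6483136-6483385: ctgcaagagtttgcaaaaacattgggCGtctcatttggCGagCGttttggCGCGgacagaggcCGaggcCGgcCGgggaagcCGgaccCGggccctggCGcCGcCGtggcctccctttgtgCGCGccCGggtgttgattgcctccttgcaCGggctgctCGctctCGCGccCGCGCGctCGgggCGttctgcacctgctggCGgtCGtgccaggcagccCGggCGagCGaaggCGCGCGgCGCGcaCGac
The motif CG, which reads the same on both strands, occurred 24 times upstream of start 1, 24 times upstream of start 2 and 36 times upstream of start 3, and GC content was 70.8%, 74.8% and 72%. Among 35116 RefSeq promoters cut to the same length, the median was 11 and 23.7% had at least 24. Only 4.85% had at least 36. Upstream of starts 4 and 5 the motif occurred 3 and 4 times, and the lists hold no gained region that far into the gene body. The PTPRN2 promoter is not in that table.

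The region at the RBFOX1 start edge had higher signal in every treated library than in either control library. The authors' deposited table gives normalized reads, that is reads times 1 factor per library, and its scale differs between lists. With Doxo the region had 39.81 and 48.58 normalized reads, against 4.32 and 1.39 in the controls. In the diMe-Doxo list it had 64.7 and 51.04 with diMe-Doxo, against 7.22 and 2.03, and in the Acla list 83.69 and 68.79 with Acla, against 8.55 and 2.44. The control values are 3 reads in 1 library and 1 read in the other, and no control peak was called there. The lowest control value in every list is 1 read, which may also stand for no read, so folds over such controls depend on that value. The authors' deposited table puts the region's log2 fold over control at 3.95 with Doxo, 3.65 with diMe-Doxo and 3.79 with Acla, with false discovery rates (FDR) of 0.000203, 0.000123 and 7.68e-05. Since the lists were selected on this contrast, these values describe the region and test nothing further.

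Outside its start edge, the RBFOX1 body was nearly free of gained regions. With Doxo the second region had 9.95 and 9.86 normalized reads, against 2.88 and 1.39 in the controls. It stood near the limits of the list, with a log2 fold of 2.21 and an FDR of 0.0697 in the authors' deposited table, and no peak was called there in any of the 4 libraries. At 1.18 regions per Mb with Doxo and 0.59 with diMe-Doxo and with Acla, the body was sparser than most of the genome. Across 3025 windows of 1 Mb, 92.1% held at least as many Doxo regions per Mb, 91.4% as many diMe-Doxo regions and 91.4% as many Acla regions. The flanks, 1 Mb on each side, held 6 Doxo regions per Mb, 1.5 diMe-Doxo regions and 2 Acla regions, and the ratio of body to flanks was 0.197, 0.393 and 0.295 for the 3 drugs. With these flanks only the Doxo ratio had a counting interval below 1 (95% exact interval 0.0214 to 0.883). The interval included 1 at an FDR up to 0.01 and a log2 fold from 2 (ratio 0.236, 0.005 to 2.11), limits under which the Acla ratio was 1.18 (0.015 to 92.6), and with flanks of 0.5 Mb (Doxo ratio 0.59, 0.0428 to 8.14). All such intervals cover counting error only, and neighbouring regions need not be independent. The genes were chosen with earlier results of these data known, so the intervals describe the counts and test nothing.

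**Figure D1:**
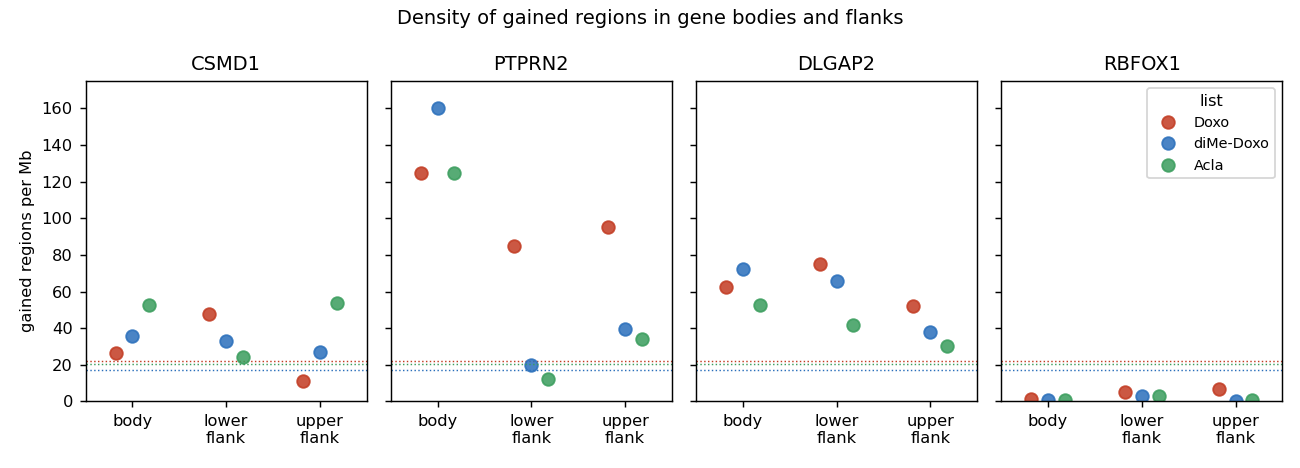
Gained regions per Mb (vertical axis, linear from 0) in each gene body and in the flank at lower and at higher coordinates, one colour per drug's list; dotted lines are the genome means of 21.8 (Doxo), 17.3 (diMe-Doxo) and 20.2 (Acla). The PTPRN2 body stands at 124.8, 160 and 124.8 regions per Mb, its diMe-Doxo and Acla points lie far above both flanks, and RBFOX1 stays below the means throughout.

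PTPRN2 had the densest body of the 4 genes with every drug. Doxo gave 131 regions (124.8 per Mb, 118235 bp covered), diMe-Doxo 168 (160 per Mb, 142096 bp) and Acla 131 (124.8 per Mb, 112687 bp). The union covered 162613 bp, or 15.5% of the body, against 5.12% in CSMD1, 7.15% in DLGAP2 and 0.168% in RBFOX1. Of the 3025 windows of 1 Mb, 15 were at least as dense with Doxo, 1 with diMe-Doxo and 6 with Acla. Ends of chromosomes are dense in general: over 41 chromosome ends of 8 Mb, the median was 52.6 Doxo, 34 diMe-Doxo and 36.1 Acla regions per Mb.

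The step from the PTPRN2 body to its flanks differed in size between the lists. With Doxo the flanks were dense as well, at 89.2 regions per Mb, and the ratio of body to flanks was 1.4 (1.1 to 1.78). That interval included 1 under stricter limits of FDR and fold (1.16, 0.83 to 1.61) and with flanks of 0.5 Mb (1.13, 0.874 to 1.47). With diMe-Doxo the flanks held 28.2 per Mb and the ratio was 5.68 (4.1 to 8). With Acla they held 21.1 per Mb and the ratio was 5.9 (4.06 to 8.79). The flank towards the chromosome end spans 0.703 Mb, up to the last listed region. At the gene start diMe-Doxo and Acla showed a sharp step and Doxo did not: the first 250 kb inside the body held 25 Doxo regions, 27 diMe-Doxo regions and 19 Acla regions. The 250 kb just outside held 21, 1 and 0. At the gene end the same lengths held 36, 43 and 30 regions inside, against 31, 13 and 7 outside. In the 1 Mb beyond the gene end, towards DNAJB6 in the RefSeq order of genes, Doxo had 85 regions, diMe-Doxo 20 and Acla 12.

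Gained regions ran along the whole PTPRN2 body. Each of the 11 bins of 100 kb held gained regions, with a median of 18 in the union. The fullest, chr7:157500000-157600000, held 27, and the Doxo, diMe-Doxo and Acla lists had 19, 24 and 19 of these. The median gap between neighbouring regions was 3980 bp with Doxo, 3435 bp with diMe-Doxo and 3940 bp with Acla, and the longest gaps were 51619, 35929 and 48648 bp. Counted in deciles from the gene start, the eighth and the ninth held 18 and 22 Doxo regions, and the first and the second 11 each. Median positions were 56.3%, 55.6% and 55.4% of the way from the start.

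**Figure D2:**
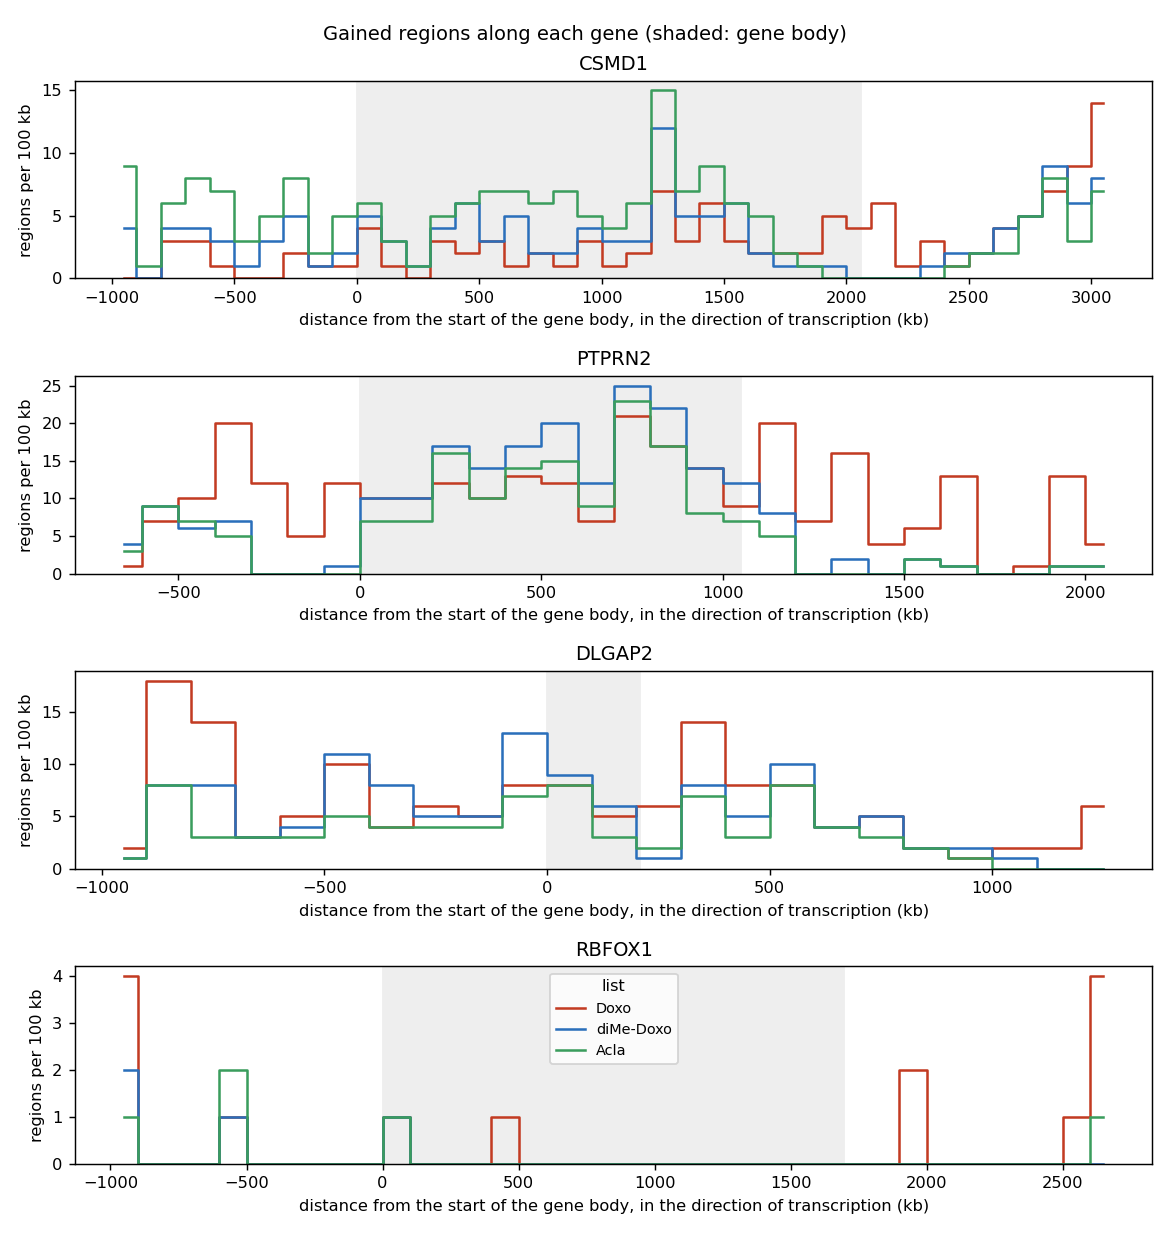
Gained regions per 100 kb (vertical axis) against distance in kb from the start of each gene body, in the direction of transcription, with the body shaded and one line per drug's list. In PTPRN2 the diMe-Doxo and Acla lines drop to 1 and 0 in the 100 kb before the start while Doxo keeps 12, and in CSMD1 the Acla line peaks at 15 between 1200 and 1300 kb.

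Many PTPRN2 regions had signal before treatment. A control peak had been called at 58 of its 197 regions (29.4%), against 14.1% of all gained regions. The 2 control libraries held 857 and 596 reads over these regions, which is 5.27 and 3.67 reads per kb, against 3.7 and 3.65 reads per kb over all gained regions. The controls therefore differed from each other more over PTPRN2 than over the whole union. Regions listed for Doxo averaged 46.8 and 45.5 normalized reads in the Doxo libraries, against 6.63 and 3.98 in the control libraries. Regions listed for diMe-Doxo averaged 49.9 and 45.7 with diMe-Doxo, against 9.57 and 6.08. Regions listed for Acla averaged 47.1 and 45.7 with Acla, against 9.44 and 6.64. In each list both treated means lay above both control means. The lists were selected on gain over these controls, so this describes the regions and tests nothing. The median log2 fold in the authors' deposited table was 2.92, 2.62 and 2.43 for Doxo, diMe-Doxo and Acla in PTPRN2, against 2.95, 2.52 and 2.62 over each whole list.

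The region of PTPRN2 with the lowest FDR differed from drug to drug. For Doxo it was chr7:157337271-157338321, near the gene end, with a Doxo signal of 106.62 and 114.06 normalized reads, against 1.44 and 1.39 in the controls, which is 1 read in each. Its log2 fold was 6.29 with Doxo (FDR 2.34e-08), 2.77 with diMe-Doxo and 2.57 with Acla in the authors' deposited table, and the authors called a peak there in both Doxo libraries and in none of the others. For diMe-Doxo it was chr7:157766977-157768359, with log2 folds of 4.7, 4.86 and 4.45 for Doxo, diMe-Doxo and Acla in the authors' deposited table. It had 91.92 and 95.18 normalized reads with diMe-Doxo, against 2.41 and 4.05 in the controls. For Acla it was chr7:157720457-157722748, with 144.95 and 122.97 normalized reads with Acla, against 11.4 and 2.44 in the controls. Its log2 folds for Doxo, diMe-Doxo and Acla were 4.03, 4.4 and 4.27 in the authors' deposited table.

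Other PTPRN2 regions rested on controls that disagreed. The widest, chr7:157351676-157355294 (3618 bp), held 350 and 370 Doxo reads, 584 and 503 diMe-Doxo reads and 680 and 647 Acla reads, against 27 reads in 1 control library and 1 in the other. A peak had been called there in both control libraries, also in the one with 1 read. The region nearest the start, chr7:158378578-158379873, lay 1127 bp inside the body and was listed for Doxo only. With Doxo it had 107.33 and 97.16 normalized reads, against 7.21 and 23.57 in the controls, and a log2 fold of 2.73 in the authors' deposited table.

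CSMD1, the longest body at 2.061 Mb, was listed most for Acla. Acla gave 108 regions (52.4 per Mb, 95225 bp covered), diMe-Doxo 74 (35.9 per Mb, 72349 bp) and Doxo 55 (26.7 per Mb, 50160 bp). The order differs from that of the whole lists, in which Doxo has 66720 regions, diMe-Doxo 52784 and Acla 61295. With Acla, 7.14% of the 1 Mb windows of the genome were at least as dense as CSMD1, with diMe-Doxo 12.5% and with Doxo 27.4%. Acla was given at 20 µM and the others at 10 µM, so these counts stand side by side and are not a comparison of the compounds. Whether the counting intervals of the CSMD1 ratios included 1 depended on the limits used. With all listed regions and flanks of 1 Mb, the ratio was 0.905 (0.615 to 1.33) with Doxo, 1.2 (0.84 to 1.71) with diMe-Doxo and 1.34 (0.995 to 1.82) with Acla. With flanks of 0.5 Mb on each side the ratios were 1.4 (0.821 to 2.51), 2.11 (1.23 to 3.82) and 2.02 (1.3 to 3.22), so that the diMe-Doxo and Acla intervals then lay above 1. With an FDR up to 0.01 and a log2 fold from 2, the intervals excluded 1 in opposite directions, at 0.47 (0.236 to 0.896) with Doxo and 2.2 (1.37 to 3.64) with Acla. Without regions that had a control peak, the Acla ratio was 1.39 (1.02 to 1.9).

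The order of the drugs turned round along CSMD1. In the last decile of the body, at the gene end and nearest the chromosome end, Doxo had 9 regions, diMe-Doxo 2 and Acla 1. In the sixth decile Doxo had 9, diMe-Doxo 13 and Acla 18. The flanks followed the same course: the 1 Mb beyond the gene end, towards MYOM2, held 48 regions with Doxo, 33 with diMe-Doxo and 24 with Acla, and the 1 Mb before the start, towards MCPH1, held 11, 27 and 54. In the 250 kb just outside the gene end only Doxo had gained regions, 10 of them, against 9 in the 250 kb inside. The fullest bin of 100 kb, chr8:3600000-3700000, held 11 regions, and the Doxo, diMe-Doxo and Acla lists had 7, 8 and 10 of these. One of the 22 bins was empty and the median was 5.5. Gaps were wider than in PTPRN2, with medians of 29901 bp with Doxo, 15832 bp with diMe-Doxo and 11364 bp with Acla.

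CSMD1 regions had few reads in the controls. A control peak had been called at 3 of its 126 regions (2.38%), against 14.1% of all gained regions. The 2 control libraries held 243 and 236 reads over them, or 2.3 and 2.24 reads per kb. With Acla, 104 and 101 of the 108 listed regions had a peak in the treated libraries, against 2 and 1 in the controls. With Doxo, 31 and 37 of the 55 listed regions had one in the treated libraries, against 1 and 2. Both treated libraries had a peak at 89.8% of the Acla regions, 68.9% of the diMe-Doxo regions and 45.5% of the Doxo regions. Over the whole lists these shares were 73.5%, 70.1% and 63.4%. Regions listed for Acla averaged 46.9 and 35.3 normalized reads with Acla, against 5.38 and 4.75 in the controls. Regions listed for diMe-Doxo averaged 28.7 and 24.3 with diMe-Doxo, against 4.26 and 4.16, and regions listed for Doxo averaged 19 and 22.9 with Doxo, against 2.75 and 2.85. At 47.3% of the Doxo regions, 44.6% of the diMe-Doxo regions and 41.7% of the Acla regions each control held 1 read, against 25%, 32.5% and 34.4% over the whole lists, so that more of the CSMD1 folds rest on this lowest value.

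**Figure D3:**
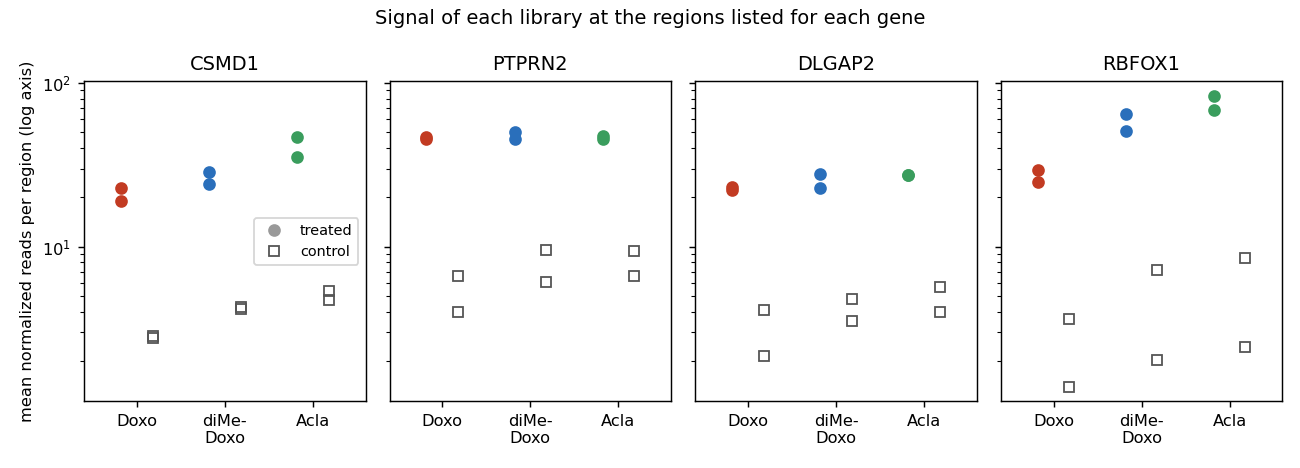
Mean normalized reads per listed region (vertical axis, log scale) in each of the 2 treated libraries (filled circles) and the 2 control libraries (open squares), for each gene and drug's list. Every pair of treated libraries lies above its controls, for example 46.9 and 35.3 against 5.38 and 4.75 for Acla in CSMD1. The lists were selected on this contrast, and the scale differs between lists.

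Single regions of CSMD1 are named by their lowest FDR, width or position. The region with the lowest Doxo FDR, chr8:2990279-2991483, lies near the gene end. With Doxo it had 75.35 and 84.49 normalized reads, against 1.44 and 8.32 in the controls, and log2 folds of 4.03 with Doxo, 2.78 with diMe-Doxo and 2.32 with Acla in the authors' deposited table. In the middle of the body, chr8:3725181-3727038 had the lowest FDR with both diMe-Doxo and Acla. It had 115.07 and 99.14 normalized reads with Acla, against 2.85 and 4.89 in the controls. It had 61.13 and 57.01 with diMe-Doxo, against 2.41 and 4.05, and 14.93 and 33.8 with Doxo, against 1.44 and 2.77. Its log2 folds in the authors' deposited table were 3.53 with Doxo (FDR 0.00399), 4.19 with diMe-Doxo (1.54e-05) and 4.79 with Acla (1.05e-06).

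The widest CSMD1 region, chr8:4181089-4183051 (1962 bp), was not listed for Doxo. It had 31.24 and 34.02 normalized reads with diMe-Doxo, against 2.41 and 6.08 in the controls, and 77.33 and 56.87 with Acla, against 2.85 and 7.33. The region nearest the start, chr8:4851243-4852763, ended 237 bp inside the edge of the body and was listed for all 3 drugs. It held 71 and 71 Doxo reads, 317 and 258 diMe-Doxo reads and 358 and 295 Acla reads, against 1 read in 1 control library and 14 in the other. Its log2 folds were 2.27, 3.08 and 2.74 for Doxo, diMe-Doxo and Acla in the authors' deposited table, and no control peak was called there.

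DLGAP2 had few regions, and its ratios of body to flanks had wide counting intervals. Doxo gave 13 regions (62.5 per Mb), diMe-Doxo 15 (72.1 per Mb) and Acla 11 (52.9 per Mb) in the body of 0.208 Mb, which covered 9915, 11249 and 8578 bp. The flanks held 63.5, 52 and 36 regions per Mb, and the ratios of 0.984 (0.51 to 1.74), 1.39 (0.749 to 2.39) and 1.47 (0.702 to 2.79) all had intervals that include 1. The flank at higher coordinates is partly shared with that of CSMD1. Regions were clustered: the third decile of the body held 5 with each drug, while the fourth, sixth and ninth deciles held none with any. RefSeq gives DLGAP2 a length of 970849 bp in GRCh38.p14 and RBFOX1 2473620 bp, against the 208000 and 1695000 bp used here, so their flanks may hold more of these genes.

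The DLGAP2 regions with the lowest FDR lay in that decile. The region with the lowest Doxo FDR, chr8:1506157-1506639, had a Doxo signal of 22.04 and 22.53 normalized reads, against 1.44 and 1.39 in the controls, and log2 folds of 3.98 with Doxo, 3.18 with diMe-Doxo and 2.72 with Acla in the authors' deposited table. The region with the lowest FDR for the other drugs, chr8:1494844-1496008, had 60.24 and 56.55 normalized reads with diMe-Doxo, against 7.22 and 2.03 in the controls. It had 48.57 and 46.11 with Acla, against 8.55 and 2.44, and 24.17 and 31.68 with Doxo, against 4.32 and 1.39. The widest, chr8:1586484-1588084 (1600 bp), had log2 folds of 2.72, 2.81 and 2.72 for Doxo, diMe-Doxo and Acla in the authors' deposited table. The region nearest the start, chr8:1455842-1456272, was 6842 bp inside the body and was listed for Doxo (log2 fold 3.02) and diMe-Doxo (1.94) in the authors' deposited table. A control peak had been called at 2 of the 20 DLGAP2 regions, and the controls held 47 and 35 reads over all of them.

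The lists that held a region differed between the genes. Of the 126 CSMD1 regions, 35 (27.8%) were listed for all 3 drugs, 34 (27%) for diMe-Doxo and Acla but not Doxo, 33 (26.2%) for Acla only and 13 (10.3%) for Doxo only. Over all 100205 gained regions these shares were 28.7%, 14.6%, 13.8% and 29.5%. Of the 197 PTPRN2 regions, 96 (48.7%) were listed for all 3 drugs, 34 (17.3%) for diMe-Doxo only, 29 (14.7%) for diMe-Doxo and Acla, 23 (11.7%) for Doxo only and 3 (1.52%) for Acla only. The share of all gained regions listed for diMe-Doxo only was 4.97%. Of the 20 DLGAP2 regions, 6 were listed for all 3 drugs and 4 for Doxo only. The shares are a description: the lists share their controls, and regions that missed a list's limits can still have gained signal.

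**Figure D4:**
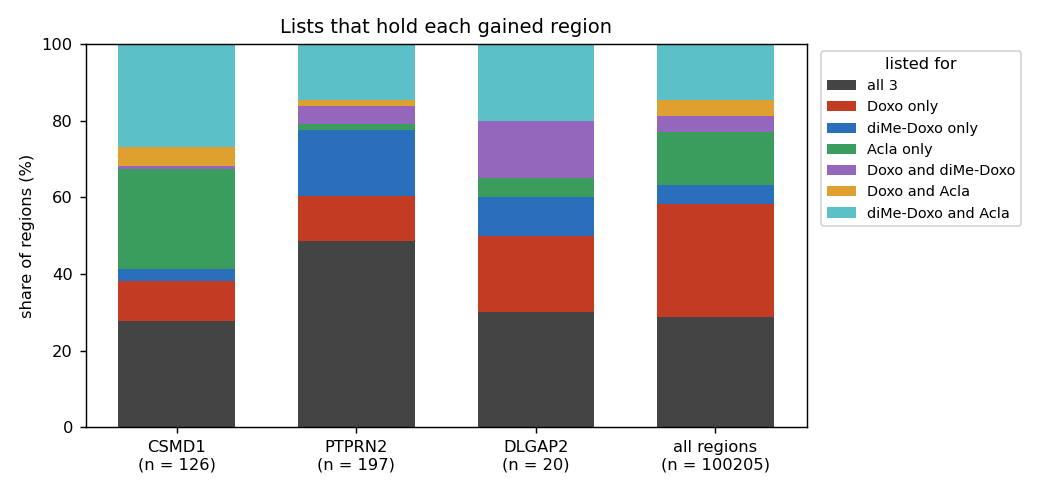
Share of regions (vertical axis, percent) held by each combination of the 3 lists in CSMD1, PTPRN2 and DLGAP2 and in all gained regions. The share listed for all 3 drugs is 48.7% in PTPRN2, and the share listed for Acla only is 26.2% in CSMD1, beside 28.7% and 13.8% over all regions.

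Doxo and diMe-Doxo were matched in dose and time, and this 1 pair of compounds was compared directly at regions in both lists. Of 151 such regions in the 4 genes, 31 had more signal with Doxo (20.5%) and 11 less (7.28%), with limma on log2(normalized reads + 1), Benjamini-Hochberg adjustment over all 33140 regions in both lists and a limit of 0.05. Over all of these regions, 28.2% were higher and 2.73% lower. By edgeR with the same scaling, 32 of the 151 were higher (background 28.8%) and 10 lower (background 2.84%). The test used the Doxo and diMe-Doxo libraries, put on 1 scale through the controls that the lists share. Since nothing says that a group's libraries are separate cultures, its p-values measure the spread between these libraries, which may be technical. That spread was a median SD of 0.204 on the log2 scale between the Doxo libraries and 0.164 between the diMe-Doxo libraries in these genes.

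How many regions stood on each side depended on the scaling. The 2 shared controls link the lists unequally. In control libraries 1 and 2, 1 read equals 1.441 and 1.387 normalized reads in the Doxo list. In the diMe-Doxo list it equals 2.406 and 2.026. The shared-control scaling lies between those that each control alone would give, and neither of these was tested. With TMM factors, 22 of the 151 were higher (background 22.9%) and 23 lower (background 9.45%), and the median log2 difference of all regions was -0.07, against 0.25 with the shared-control scaling. Relative to that median, the genes moved little between the 2 scalings: with the shared-control scaling CSMD1 had a median of -0.39, PTPRN2 -0.22 and DLGAP2 0.09, and with TMM factors -0.39, -0.23 and 0.1. The PTPRN2 value was -0.09 without Doxo library 2. The DLGAP2 value did not hold its sign: it was -0.2 without Doxo library 1, -0.08 without diMe-Doxo library 2 and -0.13 with at least 20 reads in every library. Leaving out 1 library at a time changed the counts, in these genes and over all 33140 regions. The median of the 151 regions relative to all regions was -0.28 and -0.13 without Doxo library 1 or 2. It was -0.25 and -0.24 without diMe-Doxo library 1 or 2, against -0.23 with all libraries.

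PTPRN2 held most of the regions that passed the test, and also 105 of the 151 tested regions in both lists. Of these 105, 26 were higher with Doxo (24.8%) and 8 lower (7.62%), against 28.2% and 2.73% over all 33140 regions. The number called lower depended on the libraries kept, both in PTPRN2 and over all regions. The PTPRN2 median relative to all regions was -0.29 and -0.09 without Doxo library 1 or 2. It was -0.23 and -0.19 without diMe-Doxo library 1 or 2. Under limma with TMM factors 19 were higher (18.1%, background 22.9%) and 15 lower (14.3%, background 9.45%). Other counts were 20 and 17 by edgeR with TMM factors, 15 and 10 by DESeq2, and 19 and 19 with libraries scaled to 1 median. Over all regions the same settings gave 7831 and 3508, 6484 and 1514, and 7402 and 3706, against 9344 and 905 in the main test. The largest difference was at chr7:157337271-157338321, with 150 and 162 reads with Doxo, against 36 and 31 with diMe-Doxo. On the common scale these are 106.6 and 114.1 normalized reads, against 10.3 and 9.13, and limma's log2 difference was 3.38 ± 0.27 (SE, 2 libraries each, Benjamini-Hochberg adjusted p = 2.79e-13). The opposite extreme was chr7:157576926-157577692, with 16 and 25 reads with Doxo, against 129 and 135 with diMe-Doxo. There limma's log2 difference was -1.37 ± 0.32 (SE, Benjamini-Hochberg adjusted p = 0.000533), and both regions passed under all alternatives that kept them. The PTPRN2 flanks had 32 regions in both lists, of which 23 were higher with Doxo by limma (71.9%), and their median log2 difference was 1.42, against 0.02 in the body. Under TMM factors these medians were 1.09 and -0.3. The CSMD1 flanks had a median of 0.21, against -0.14 in the body, and the DLGAP2 flanks one of 0.7, against 0.34. Whether body and flank differ in these values was not tested.

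CSMD1 held regions that passed in both directions. Of its 36 regions in both lists, 5 were higher with Doxo (13.9%) and 3 lower (8.33%), against 28.2% and 2.73% over all 33140 regions. The balance turned round under other scalings, with 3 higher and 7 lower by limma and 4 and 7 by edgeR, both with TMM factors. It was 2 and 4 by DESeq2, and 3 and 8 with all libraries scaled to 1 median. Over all regions, lower calls also rose, from 905 to 3132, 3508, 1514 and 3706 in that order, though higher calls stayed more numerous. The CSMD1 median relative to all regions was -0.39 with the shared-control scaling and with TMM factors. It was -0.32 and -0.45 without Doxo library 1 or 2, and -0.43 and -0.48 without diMe-Doxo library 1 or 2. The numbers called also changed with the library left out, in CSMD1 and over all regions. Near the gene end, chr8:2990279-2991483 had a Doxo signal of 75.3 and 84.5 normalized reads, against 37.4 and 26.5 with diMe-Doxo on the common scale, a limma log2 difference of 1.31 ± 0.24 (SE, Benjamini-Hochberg adjusted p = 2.45e-05) that passed under all alternatives. At the gene start, chr8:4851243-4852763 had a Doxo signal of 50.5 and 50 normalized reads, against 90.6 and 75.9 with diMe-Doxo. Its limma log2 difference was -0.71 ± 0.22 (SE, Benjamini-Hochberg adjusted p = 0.0112). Both Doxo libraries lay below both diMe-Doxo libraries there, and the adjusted p was 0.0753, 0.0825 and 0.0884 by limma without Doxo library 1, Doxo library 2 or diMe-Doxo library 1. The largest and smallest CSMD1 differences rested on unequal Doxo libraries. At chr8:3901982-3903062 (limma log2 difference 1.49) Doxo had 21 and 63 reads, and the Benjamini-Hochberg adjusted p was 0.00426 with all libraries and 0.189 without Doxo library 2. It was 0.0731 with TMM factors. At chr8:3428714-3429978 (limma log2 difference -1.17) Doxo had 23 and 6 reads, and the Benjamini-Hochberg adjusted p was 0.0401, against 0.582 without Doxo library 2, 0.285 and 0.232 without either diMe-Doxo library, and 0.0566 by edgeR.

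**Figure D5:**
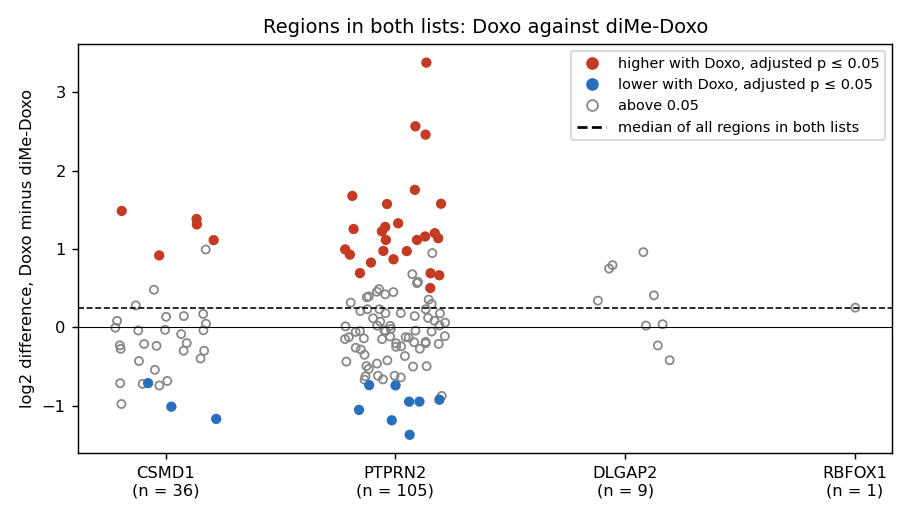
Log2 difference, Doxo minus diMe-Doxo (vertical axis), at each region in both lists, by gene; filled points passed limma's test at an adjusted p of 0.05, red for higher and blue for lower with Doxo, and the dashed line is the median of all 33140 regions, 0.25. PTPRN2 spans -1.37 to 3.38, while no DLGAP2 or RBFOX1 region passed.

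At DLGAP2 and RBFOX1 no difference between Doxo and diMe-Doxo passed. Among the 9 DLGAP2 regions in both lists, limma and edgeR each called 0, and before adjustment each had 3 higher and 0 lower regions at p under 0.05. Over all 33140 regions limma had 10759 higher and 1735 lower at that limit, and edgeR 10879 and 1659. The DLGAP2 share of higher regions was thus close to that of all regions. The DLGAP2 log2 differences ranged from -0.42 to 0.96. The highest, at chr8:1455842-1456272, had a 95% interval, not adjusted for the number of regions, of 0.126 to 1.79, and the lowest, at chr8:1494844-1496008, one of -0.977 to 0.138. With only regions of at least 20 reads in every library tested, 3 of the 6 left in DLGAP2 were higher, beside a background of 45.4%. At chr8:1455842-1456272 the limma log2 difference was 1.04 without Doxo library 1 and 0.88 without Doxo library 2. With TMM factors 1 region was lower, at chr8:1494844-1496008, beside a background of 9.45%. At the RBFOX1 start edge the common-scale Doxo values were 39.8 and 48.6 normalized reads, against 41.4 and 32.7 with diMe-Doxo, and the libraries overlapped. The limma log2 difference was 0.25 with a 95% interval of -0.269 to 0.771 (Benjamini-Hochberg adjusted p = 0.545), and it was -0.07 with TMM factors. This interval includes 0, and it does not show that the compounds act alike there.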

How the data were processed

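The regions came from 3 deposited lists, 1 per drug, whose log2 fold over control, p-value and FDR per region are the authors' own. GRCh37 and DiffBind are named in the submitters' processing notes; the aligner, peak caller, normalization and versions were not given in the sources used here. Without a header, column meanings were read from the values. Each list holds deposited regions with a log2 fold of at least 1.5 and a p-value of at most 0.05, and whether starts count from 0 or 1 is not stated. Per library, the deposited signal equals a whole read count times 1 factor. Dividing by that factor gave whole reads at 100% of values within 0.1 reads, and a deposited value of 1 read is the lowest in the controls. The full depth is unknown: treated libraries held 3534855 to 7266289 reads inside the listed regions and control libraries 120492 to 253175.

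The 4 genes, their limits and the lists of named regions were chosen with earlier results of these data known. Named regions are, per gene, the lowest FDR for each drug, the widest, the one nearest the start, the fullest 100 kb bin and the highest and lowest Doxo to diMe-Doxo difference. All listed RBFOX1 regions are described. Paralogs of the genes were not analysed here. Gene starts follow the RefSeq strand for RBFOX1 and general knowledge of the strand for the others. Body and flank counts used at least 1 bp of overlap. Counts in deciles, bins, 1 Mb windows, chromosome ends and the 250 kb beside gene edges used region midpoints. Intervals of ratios are exact 95% counting intervals. With 2 treated and 2 control libraries, an exact two-sided test cannot go below p = 0.333, and no test was made of drug against control.

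The deposited unit is a signal, so limma with trend (3.58.1, R 4.3.3) was the test of Doxo against diMe-Doxo, on log2(value + 1), with edgeR (4.0.16) and DESeq2 (1.42.0) on the recovered reads as alternatives. On simulated data of these 33140 regions, limma found 98% of 4-fold and 46% of 2-fold changes with 2.04% false calls; edgeR found 100% and 52% with 4.4%. The simulation used the authors' factors only and the same dispersion (variance beyond counting error) for every region. Few regions were changed in it, balanced between higher and lower. The real calls were many and mostly higher, so these rates need not hold for them. Scaling all libraries to 1 median, and the replicate-by-replicate values of named regions, were added after seeing the data. Figures were drawn with matplotlib 3.10.9; tables came from pandas 2.3.3, numpy 2.4.6 and scipy 1.17.1 under Python 3.11.15.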

Additional observations from a re-analysis of the deposited data

How the results depend on the processing

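No paired analysis was possible because the labels give 1 sample per group and no number that pairs libraries. Counting by midpoint changed no count in the bodies and no ratio, and could change little because only 1 listed region crosses an edge of a body. Leaving out regions with a control peak left all 12 counts of regions within 1.5 times. All 12 ratios of body to flanks then stayed within their counting intervals. Some of these are so wide that this shows little, such as 0.006 to 2.98 for Acla in RBFOX1. Under stricter limits (log2 fold from 2, FDR up to 0.01), Doxo, diMe-Doxo and Acla kept 15, 20 and 59 regions in CSMD1. They kept 65, 82 and 48 in PTPRN2, and 6, 4 and 2 in DLGAP2, and Doxo kept 1 in RBFOX1. The whole lists shrank as well. Doxo fell from 66720 to 32564, diMe-Doxo from 52784 to 20111 and Acla from 61295 to 26254. These limits moved the CSMD1 ratio to 0.47 with Doxo and 2.2 with Acla, with intervals on opposite sides of 1, and flanks of 0.5 Mb moved it to 1.4 with Doxo, 2.11 with diMe-Doxo and 2.02 with Acla. RBFOX1 had no flank region, and so no ratio, for diMe-Doxo under the stricter limits and for diMe-Doxo and Acla with the shorter flanks. For Doxo against diMe-Doxo in the 4 genes, DESeq2 called 17 regions higher (16 of the 151 had no adjusted p). The regions called lower were 23 by limma with TMM factors, 25 by edgeR with TMM factors, 28 by limma with all libraries scaled to 1 median and 7 with at least 20 reads, where fewer regions were tested. Over all regions in both lists the lower counts in that order were 3132, 3508, 3706 and 563, against 905 in the main test. Counts also changed without 1 library at a time, in these genes and over all regions, and the lone library is then assumed to vary like the others. The cause of the other shifts was not tested. Of the values recomputed for this pair, 100 stayed within 1.5 times (counts) or within the spread between libraries (medians), and 32 moved further. The limit for medians was 0.226, wider than the PTPRN2 median of -0.2241 and the DLGAP2 median of 0.09 relative to all regions. A change of sign could thus count as staying, as for DLGAP2 at -0.13 with at least 20 reads. The tally is therefore no measure of how stable the medians are. The controls held 1 read or none at many regions. Whether their depth accounts for this was not tested, since the full depth is unknown and the lists were selected on gain over these controls.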
